A study of Homo sapiens with 30 samples.

Results

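The comparison described here asks what an empty vector changed in a FOXM1 knockout clone of OPM2, a human multiple myeloma cell line. KO1EV are knockout cells labelled as transfected with an empty vector, and KO1 are cells of the same knockout with no vector. FOXM1 had been cut in exon 2 with Cas9 ribonucleoprotein, and the clones were grown by limiting dilution, so KO1 stands for 1 clone and every KO1EV cell descends from it. The members are the 6 libraries of these groups, 3 each, of 15 OPM2 libraries and 30 in the series, and 10099 of 16407 genes reached 1 FPKM (fragments per kilobase of transcript, scaled to library size by the authors) in at least 3 of the 6. The remaining OPM2 groups were KO1 cells with a FOXM1 vector (KO1R), a second knockout clone with no vector (KO2), and unedited cells (WT), 3 libraries each. All groups were grown in RPMI medium with 10% serum. The study's text describes lentiviral delivery and GFP sorting for the FOXM1 vector, and does not say in so many words that the empty vector cells were sorted. The vector, any delivery or sorting, and the time in culture differ together between KO1EV and KO1 and cannot be told apart.

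FOXM1 is a forkhead transcription factor of proliferating cells that acts in the G2 and M phases of the cell cycle, with CDC25B, PLK1 and CENPF among its known targets. Myeloma cells are malignant plasma cells, which secrete large amounts of immunoglobulin, keep a large endoplasmic reticulum and depend on its stress responses. An empty vector is the usual control for a returned gene: it carries the backbone and a marker but no insert, and an integrating vector enters the genome at a different place in each cell it reaches.

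Plasma cell markers were high in both groups. All 10 markers of plasma cells and of this myeloma subtype were above 1 FPKM in all 6 libraries, and their summed level ranged over 7706 to 8432 FPKM in KO1EV and 7664 to 7961 FPKM in KO1. Fixed marker sets of B cells, T cells, monocytes, epithelial cells and stromal cells each summed to at most 3.21 FPKM in any of the 6 libraries. MS4A1, which defines B cells, was listed at 0 in all 6, and BACH2, at 2.42 to 3.18 FPKM, made up most of the B cell sum. These sums depend on the markers chosen. The B cell gene CD79B, outside them, had 7.80 to 9.92 FPKM. CD7, a T cell gene also outside them, had 1.65 to 3.42 FPKM in KO1EV and 16.5 to 20.8 FPKM in KO1. FPKM give no read totals, so the depth is unknown, and column totals were 527168 to 551537 FPKM in KO1EV and 510776 to 524126 FPKM in KO1. In bulk RNA, a lower value from fewer cells of a type and one from less RNA per cell cannot be told apart. KO1EV library 3 stood apart from its group. The SD over genes of its difference from the mean of libraries 1 and 2 was 0.270 (log2), against 0.155 to 0.157 for each of the other KO1EV libraries and 0.109 to 0.136 for the KO1 libraries, measured the same way. It lay at least 2-fold from the other KO1EV libraries in 52 genes, above them in 8 and below them in 44. Results are therefore also given without it.

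The empty vector cells differed from the untransduced knockout in many genes by a little and in few genes by much. With all 6 libraries, 625 of 10099 genes passed limma's moderated test at a Benjamini-Hochberg adjusted p below 0.05, or 6.19%, with 235 higher in KO1EV (2.33%) and 390 lower (3.86%). The median log2 fold change, taken on log2(FPKM + 1) as KO1EV over KO1, was 0.36 among the genes called higher and −0.43 among those called lower. Of these, 30 rises and 106 falls reached 1.5-fold on that scale, and 11 rises (0.109%) and 22 falls (0.218%) reached 2-fold. Without KO1EV library 3 the test called 3106 genes (30.8%), 1174 higher (11.6%) and 1932 lower (19.1%), with 14 rises and 22 falls of at least 2-fold. All 625 genes were called in the same direction without that library, and 2481 more were called. Whether the 3 libraries of a group came from separate cultures is not stated. The p-values therefore rest on library-to-library spread, which may be technical. Leaving out any other library cut the count, to 224 and 222 without KO1EV library 1 or 2 and to 227, 113 and 139 without KO1 library 1, 2 or 3. In all 6 of these fits 107 genes were called, 35 higher and 72 lower, among them 29 of the 33 genes that changed at least 2-fold. The 4 that were not, GAGE12I, GAGE2A, MX2 and ULBP1, had low or paralogous transcripts and are named here because of this count.

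**Figure D1:**
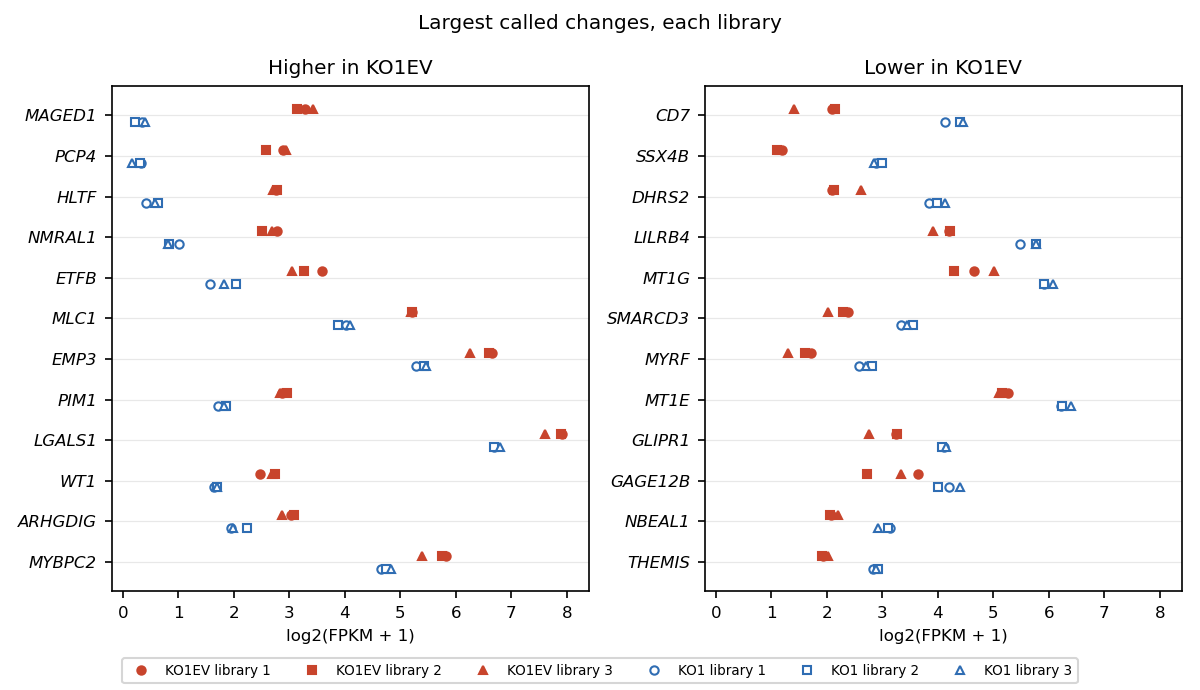
Values of log2(FPKM + 1) on the horizontal axis for the 12 largest rises (left) and the 12 largest falls (right) called with and without KO1EV library 3, among genes with a mean of at least 5 FPKM in KO1EV or KO1. Filled symbols are KO1EV libraries, open symbols are KO1 libraries, and the symbol shape gives the library number. The 3 KO1EV points lie on one side of the 3 KO1 points in each of the 24 genes, which were picked as the largest called changes. Over all 10099 genes, every KO1EV library was above every KO1 library in 12.5% and below every one in 16.6%.

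The strongest rises were of genes that KO1 had almost silent. Of the 11 genes that rose at least 2-fold, 5 had a KO1 mean under 1 FPKM, which are MAGED1, PCP4, HLTF, NMRAL1 and GNG10. RefSeq promoter windows (GRCh38.p14, 250 bases before a listed start) are shown for those of the first 4 that have an entry. These genes were picked for being near silent in KO1 and at least 2-fold higher in KO1EV, so that shared move follows from the choice. For MAGED1 and NMRAL1, which have more than 1 listed start, the window with more CG pairs is printed. Letters run 5′ to 3′ on the gene's strand, and capitals mark each CG, a pair that reads the same on both strands and is the site of DNA methylation in human cells.
MAGED1 chrX:51893373-51893622 (plus strand): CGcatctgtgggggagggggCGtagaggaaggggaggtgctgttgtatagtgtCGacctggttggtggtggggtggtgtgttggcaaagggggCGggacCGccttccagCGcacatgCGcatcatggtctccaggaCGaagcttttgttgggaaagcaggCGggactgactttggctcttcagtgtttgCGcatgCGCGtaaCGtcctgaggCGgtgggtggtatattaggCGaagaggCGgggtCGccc
HLTF chr3:149086534-149086783 (minus strand): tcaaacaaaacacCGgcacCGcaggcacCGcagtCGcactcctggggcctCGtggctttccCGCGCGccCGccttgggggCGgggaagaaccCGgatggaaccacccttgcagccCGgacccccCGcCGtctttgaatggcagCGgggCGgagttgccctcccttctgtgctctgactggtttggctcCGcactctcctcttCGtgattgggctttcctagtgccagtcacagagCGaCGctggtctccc
NMRAL1 chr16:4476338-4476587 (minus strand): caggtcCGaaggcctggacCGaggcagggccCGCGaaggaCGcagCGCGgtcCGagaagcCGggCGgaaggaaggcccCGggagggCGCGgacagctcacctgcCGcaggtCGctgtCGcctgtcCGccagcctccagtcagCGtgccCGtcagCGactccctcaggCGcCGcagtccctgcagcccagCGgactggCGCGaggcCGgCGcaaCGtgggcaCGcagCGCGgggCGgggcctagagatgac
These windows held 17, 20 and 32 CG pairs. The other windows of MAGED1 and NMRAL1 held 6 and 15. Over all 35116 windows the median was 11 CG pairs, with quartiles at 3 and 23, and 93.9% held at least 1. As many CG pairs as in the windows printed for MAGED1, HLTF and NMRAL1 were found in 39.0%, 32.4% and 9.52% of all windows. For the other windows of MAGED1 and NMRAL1 these shares were 61.9% and 42.9%. The printed windows of MAGED1 and NMRAL1 were chosen for more CG pairs, which lowers their shares. DNA methylation was not measured in these libraries.

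MAGED1, an adaptor protein of the MAGE family encoded on chromosome X, had 8.73, 7.81 and 9.74 FPKM in KO1EV, against 0.27, 0.16 and 0.32 FPKM in KO1. Its log2 fold change of 2.96 ± 0.10 (SE) had an adjusted p of 8.63e-06 in limma's test. The gene was on in all KO1EV libraries and close to 0 in all KO1 libraries. KO1R, which carries the FOXM1 vector in the same knockout, averaged 0.527 ± 0.0907 FPKM (SD, n = 3) and was, like KO1, too low for a test between them. MAGED1 averaged 22.0 ± 1.54 FPKM in KO2 and 18.6 ± 0.943 FPKM in WT (SD, n = 3 each), so every library of KO1R and KO1 was under 1 FPKM and every library of the other groups was far above it.

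PCP4, a small calmodulin-binding protein, had 6.40, 4.95 and 6.69 FPKM in KO1EV, against 0.25, 0.24 and 0.12 FPKM in KO1 (log2 fold change 2.54 ± 0.11, adjusted p = 2.15e-05, limma). Its lowest KO1EV library was far above its highest KO1 library. In KO1R it averaged 0.0767 ± 0.133 FPKM, in KO2 29.1 ± 14.1 FPKM and in WT 3.31 ± 0.243 FPKM (SD, n = 3 each). HLTF, a translocase and ubiquitin ligase that remodels stalled replication forks, had 5.74, 5.84 and 5.53 FPKM in KO1EV, against 0.34, 0.55 and 0.50 FPKM in KO1 (log2 fold change 2.20 ± 0.08, adjusted p = 1.13e-05, limma). KO1EV was close to the 6.34 ± 0.568 FPKM of WT, whereas KO1R at 0.683 ± 0.0513 FPKM and KO2 at 0.457 ± 0.14 FPKM were close to KO1.

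NMRAL1, an NADPH-binding sensor protein, had 5.83, 4.71 and 5.44 FPKM in KO1EV, against 1.02, 0.78 and 0.75 FPKM in KO1, a log2 fold change of 1.77 ± 0.10. KO1R averaged 0.62 ± 0.07 FPKM, KO2 15.4 ± 0.566 FPKM and WT 9.56 ± 1.47 FPKM. GNG10, a G protein gamma subunit, had 2.13, 2.57 and 3.39 FPKM in KO1EV and 0.26, 0.59 and 0.46 FPKM in KO1 (log2 fold change 1.36 ± 0.14). It overlaps a readthrough transcript with its neighbour, which the authors' counting may have split. GNG10 is named because it passed the 2-fold threshold, although its level was below the 5 FPKM asked of a gene named by rank. These 5 genes were called in each of the 6 fits that left out 1 library. They are not neighbours: RefSeq places MAGED1 on chromosome X, PCP4 on 21, HLTF on 3, NMRAL1 on 16 and GNG10 on 9. KO1EV and KO1R were both compared with the same KO1 libraries, and each is set beside KO1 by its own values only.

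**Figure D2:**
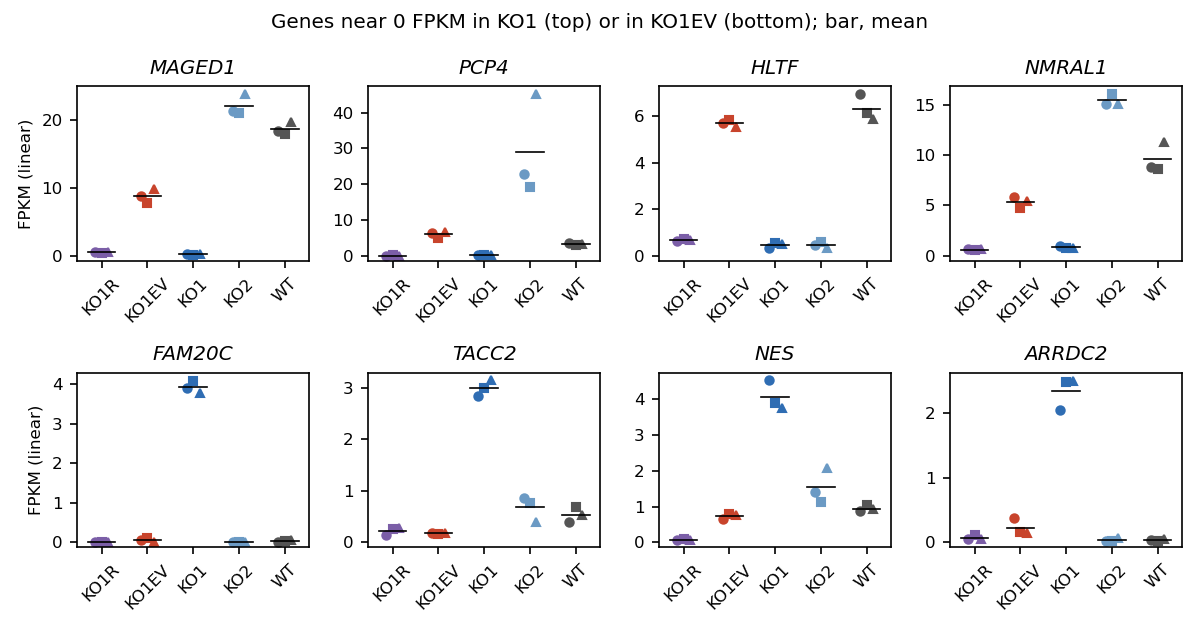
FPKM on a linear axis in each library of KO1R, KO1EV, KO1, KO2 and WT for 4 genes near 0 in KO1 (top row) and 4 near 0 in KO1EV (bottom row). Symbols are libraries and bars are group means. In the top row KO1EV is above KO1R and KO1 in each gene, and in the bottom row KO1 is above each of the other groups.

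The remaining large rises were of genes already expressed in KO1. ETFB, the beta subunit of the flavoprotein that hands electrons from fatty acid oxidation to the respiratory chain, had 11.1, 8.63 and 7.28 FPKM in KO1EV, against 1.98, 3.09 and 2.53 FPKM in KO1 (log2 fold change 1.50 ± 0.16, adjusted p = 0.00216, limma). It was higher still in KO1R, at 28.3 ± 2.7 FPKM, and WT was at 7.59 ± 1.19 FPKM (SD, n = 3 each). The plasma membrane and lectin genes EMP3 and LGALS1 rose by 1.11 ± 0.11 and 1.07 ± 0.09 (log2, SE). LGALS1, which encodes galectin-1, had 239, 236 and 194 FPKM in KO1EV, against 103, 102 and 110 FPKM in KO1. In each of these genes the lowest KO1EV library was above the highest KO1 library, as in 12.5% of all genes.

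MLC1, a membrane protein best known from astrocytes, had 35.9, 36.0 and 35.6 FPKM in KO1EV, against 15.3, 13.7 and 15.97 FPKM in KO1 (log2 fold change 1.21 ± 0.07). Its level in KO1R, 14.3 ± 0.697 FPKM, was that of KO1, and WT lay lower at 4.34 ± 0.316 FPKM, so KO1EV was farther from WT than KO1 was. PIM1, a serine/threonine kinase, averaged 6.40 ± 0.342 FPKM in KO1EV and 2.48 ± 0.189 FPKM in KO1. WT1, a zinc finger transcription factor, averaged 5.21 ± 0.607 FPKM in KO1EV and 2.21 ± 0.0757 FPKM in KO1. ARHGDIG averaged 6.94 ± 0.601 FPKM in KO1EV and 3.18 ± 0.483 FPKM in KO1, and MYBPC2, a muscle-type myosin-binding protein, averaged 49.8 ± 7.89 FPKM in KO1EV and 25.7 ± 1.68 FPKM in KO1. Their log2 fold changes were 1.09, 0.95, 0.93 and 0.92. ARHGDIG was at 0.973 ± 0.206 FPKM in KO1R, below KO1, so the groups with the empty and with the FOXM1 vector lay on opposite sides of the untransduced knockout. PNMA5, of the paraneoplastic antigen family and named only because it passed 2-fold, lay on opposite sides in the same way, with 3.55 ± 0.897 FPKM in KO1EV, 0.203 ± 0.136 FPKM in KO1R and 1.17 ± 0.157 FPKM in KO1. All genes of these 2 paragraphs were called in each fit that left out 1 library.

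Among leukocyte genes, CD7, THEMIS and LILRB4 fell with the empty vector. CD7, a glycoprotein of T and natural killer cells, had 3.29, 3.42 and 1.65 FPKM in KO1EV, against 16.5, 20.2 and 20.8 FPKM in KO1 (log2 fold change −2.44 ± 0.19, adjusted p = 0.000608, limma). KO1R averaged 0.927 ± 0.127 FPKM, KO2 4.07 ± 1.07 FPKM and WT 2.93 ± 0.633 FPKM (SD, n = 3 each), so KO1 was the group with high CD7. The 4 listed genes of the fixed T cell markers, CD3 subunits and CD2 among them, summed to 0.23 to 0.26 FPKM in KO1EV and 0.25 to 0.54 FPKM in KO1, and CD7 was the sole gene of the T cell list that reached the level needed for a test. THEMIS, a T cell receptor signalling protein, averaged 2.87 ± 0.164 FPKM in KO1EV and 6.36 ± 0.253 FPKM in KO1, with 0.457 ± 0.0462 FPKM in KO1R.

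LILRB4, an inhibitory receptor found on myeloid cells and plasma cells, had 17.3, 17.6 and 14.1 FPKM in KO1EV, against 43.5, 53.4 and 53.4 FPKM in KO1 (log2 fold change −1.56 ± 0.11, adjusted p = 0.000319, limma). The highest KO1EV library was far below the lowest KO1 library. KO1R at 39.6 ± 1.48 FPKM and WT at 69.8 ± 2.17 FPKM were nearer KO1, so KO1EV was farther from WT than KO1 was. CD7 and LILRB4 lie outside the list of leukocyte signalling genes and are not in its counts. Of 17 tested genes of that list, 3 rose and 3 fell, against 2.33% rises and 3.86% falls over all 10099 genes. The list's median log2 fold change was −0.14, and −0.02 over all genes. The list's median was 0.02 without KO1EV library 3, so that library set the sign of the median. The list then had 4 rises and 5 falls, where 11.6% of all genes rose and 19.1% fell. RAC2, a small GTPase of blood cells, rose by 0.49 ± 0.05 (log2, SE), at 247.9 ± 6.1 FPKM in KO1EV and 175.8 ± 5.91 FPKM in KO1. The phosphatase PTPN6 was also called higher, by 0.46, but not without KO1EV library 2 or KO1 library 2 or 3, with adjusted p up to 0.0644 in limma's test.

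Metallothioneins, small cysteine-rich proteins that bind zinc and copper, were lower in KO1EV. Of 4 tested members 3 fell and none rose, with a median log2 fold change of −0.91. Over all genes 3.86% fell and 2.33% rose. MT1E had 37.2, 34.6 and 33.3 FPKM in KO1EV, against 73.3, 74.3 and 83.5 FPKM in KO1 (log2 fold change −1.11 ± 0.07, adjusted p = 0.000253, limma). MT1G averaged 24.7 ± 6.34 FPKM in KO1EV and 61.8 ± 4.29 FPKM in KO1, and MT2A averaged 29.3 ± 2.87 FPKM in KO1EV and 48.3 ± 4.57 FPKM in KO1. MT2A was not called without KO1 library 2, and its adjusted p in limma's test ranged over 0.000521 to 0.0517 across the fits without 1 library. MT1X, the fourth, averaged 64.0 ± 12.8 FPKM in KO1EV and 71.0 ± 3.89 FPKM in KO1, with an adjusted p of 0.479 over all 6 libraries. Its KO1EV values were 59.6, 54.1 and 78.4 FPKM, and without library 3 it was called lower as well, at −0.32 with an adjusted p of 0.00419 in limma's test. In WT, MT1E was at 10.2 ± 1.59 FPKM and MT1G at 19.2 ± 2.12 FPKM, below KO1 in each case. These genes are near-identical copies of each other, so reads may have been split between them.

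Several other falls lay in the direction of WT. DHRS2, a short-chain dehydrogenase, averaged 3.91 ± 1.04 FPKM in KO1EV and 14.9 ± 1.61 FPKM in KO1, against 1.93 ± 0.537 FPKM in WT. SMARCD3, a subunit of SWI/SNF chromatin remodellers, averaged 3.72 ± 0.581 FPKM in KO1EV and 9.93 ± 0.85 FPKM in KO1, against 1.54 ± 0.375 FPKM in WT. MYRF, a transcription factor known for driving myelin genes, averaged 1.93 ± 0.429 FPKM in KO1EV and 5.53 ± 0.545 FPKM in KO1, with 1.90 ± 0.0777 FPKM in WT. Their log2 fold changes were −1.71, −1.22 and −1.17. NBEAL1, which carries a BEACH domain, fell past WT, with 3.34 ± 0.243 FPKM in KO1EV and 7.32 ± 0.686 FPKM in KO1, against 4.76 ± 0.778 FPKM in WT. Its log2 fold change was −0.94 over KO1 and −0.40 over WT (adjusted p = 0.00122 and 0.0234, limma). GLIPR1, a secreted protein related to plant pathogenesis proteins, went the other way relative to WT. It averaged 7.61 ± 1.58 FPKM in KO1EV and 16.3 ± 0.477 FPKM in KO1, and 49.0 ± 1.4 FPKM in WT. Each gene of this paragraph was called in every fit that left out 1 library.

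A further set of genes was on at a low level in KO1 and near 0 in KO1EV. Of the 22 genes that fell at least 2-fold, 10 had a KO1EV mean under 1 FPKM. They stand outside the rank rule because of their low level and are named for that count. FAM20C, a Golgi kinase of secreted proteins, had 0.06, 0.10 and 0.02 FPKM in KO1EV, against 3.91, 4.09 and 3.78 FPKM in KO1 (log2 fold change −2.22 ± 0.08, adjusted p = 8.63e-06, limma). It was listed at 0 in all 3 KO1R libraries and averaged 0.04 ± 0.02 FPKM in WT. TACC2, a centrosomal protein, averaged 0.177 ± 0.00577 FPKM in KO1EV and 2.99 ± 0.155 FPKM in KO1, with 0.223 ± 0.0723 FPKM in KO1R. NES, the intermediate filament nestin, averaged 0.737 ± 0.085 FPKM in KO1EV and 4.05 ± 0.41 FPKM in KO1. ARRDC2, an arrestin domain protein, averaged 0.227 ± 0.133 FPKM in KO1EV and 2.34 ± 0.254 FPKM in KO1. The neighbours TMEM176A and TMEM176B had 0.277 ± 0.136 and 0.153 ± 0.0709 FPKM in KO1EV, against 3.04 ± 0.327 and 1.46 ± 0.203 FPKM in KO1, and FAM155B had 0.00333 ± 0.00577 FPKM in KO1EV, against 1.06 ± 0.0289 FPKM in KO1. On log2(FPKM + 1) the size of such a change is understated. The remaining 3 of the 10 were GAGE12I, MX2 and ULBP1.

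Cancer-testis genes moved in both directions. Of 17 tested members of the MAGE, GAGE, SSX and related families, 2 rose, MAGED1 and PAGE1, and 3 fell, MAGEA4, GAGE2A and GAGE12J. The list's median log2 fold change was −0.01, and over all genes 2.33% rose and 3.86% fell. PAGE1 averaged 4.66 ± 0.59 FPKM in KO1EV and 2.02 ± 0.356 FPKM in KO1. MAGEA4 had 67.7, 68.7 and 68.8 FPKM in KO1EV, against 81.2, 80.9 and 80.6 FPKM in KO1. It is named for this count, its log2 fold change was −0.24 ± 0.05, and the call was lost without any 1 of the 5 libraries other than KO1EV library 3 (adjusted p 0.00284 to 0.162 over the fits without 1 library, limma). GAGE2A was lost without any 1 KO1 library (up to 0.12), and GAGE12J also without KO1EV library 2 (up to 0.112). SSX4B, outside that list and named by its rank, averaged 1.23 ± 0.0751 FPKM in KO1EV and 6.55 ± 0.386 FPKM in KO1 (log2 fold change −1.76 ± 0.07). GAGE12B averaged 8.70 ± 2.95 FPKM in KO1EV and 17.5 ± 2.62 FPKM in KO1, and its call was lost without any 1 of the 3 KO1 libraries (adjusted p 0.0059 to 0.159 over the fits without 1 library, limma). SSX4B and the GAGE genes have near-identical copies on chromosome X, so their values are uncertain.

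FOXM1 transcript was slightly higher with the empty vector. It had 105.9, 105.3 and 108.8 FPKM in KO1EV, against 91.2, 93.3 and 91.7 FPKM in KO1 (log2 fold change 0.21 ± 0.05, adjusted p = 0.0488, limma). The groups did not overlap, and in 12.5% of all genes every KO1EV library was likewise above every KO1 library. The call was lost without any 1 of the 5 libraries other than KO1EV library 3. The adjusted p in limma's test ranged over 0.00133 to 0.192 across all other settings. KO1R averaged 277.5 ± 14.4 FPKM, KO2 62.1 ± 6.69 FPKM and WT 175.9 ± 0.804 FPKM (SD, n = 3 each), so transcript persisted in the knockout clones, and its level does not check the edit in exon 2.

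Late cell cycle genes did not move together. Of 51 tested genes of the FOXM1 and late cell cycle list, 7 rose (all genes 2.33%) and 2 fell (all genes 3.86%), with a median log2 fold change of −0.04. CDC25B, a phosphatase that activates CDK1, had 51.5, 51.8 and 49.7 FPKM in KO1EV, against 33.8, 38.6 and 36.3 FPKM in KO1 (log2 fold change 0.48 ± 0.06, adjusted p = 0.00597, limma), and was called in each fit without 1 library. KO1R averaged 104.7 ± 2.89 FPKM and WT 97.1 ± 3.17 FPKM, so KO1EV covered part of the distance. PLK1, a mitotic kinase, averaged 87.9 ± 4.11 FPKM in KO1EV and 65.7 ± 0.599 FPKM in KO1, against 167.3 ± 4.71 FPKM in KO1R. CCNA2 (cyclin A2) and PTTG1 (securin) were called higher by 0.34 and 0.33, and KIF18A, a mitotic kinesin, and GTSE1, a microtubule-binding protein of G2 and M, by 0.35 and 0.44. CENPF, a kinetochore protein and FOXM1 target, went against them, at 39.3 ± 1.68 FPKM in KO1EV and 51.1 ± 3.22 FPKM in KO1 (log2 fold change −0.37 ± 0.07). CDK1, the mitotic cyclin-dependent kinase, was also called lower, at −0.32. KIF18A, GTSE1 and CDK1 were chosen for naming after their values were seen. Apart from CDC25B, the calls named from this list depended on single libraries. PLK1 was lost without KO1 library 2 or 3, with adjusted p up to 0.0523 in limma's test. CENPF, CDK1 and KIF18A were lost without any 1 of the 5 libraries other than KO1EV library 3, with adjusted p up to 0.118, 0.0916 and 0.165. CCNA2 and PTTG1 were lost without KO1EV library 1 or 2 or KO1 library 2 or 3 (up to 0.11 and 0.0793), and GTSE1 without KO1EV library 1 or any 1 KO1 library (up to 0.118). With KO1EV library 3 left out, 8 of the 51 rose and 12 fell, against 11.6% and 19.1% of all genes. AURKA averaged 74.5 ± 3.17 FPKM in KO1EV and 75.6 ± 1.66 FPKM in KO1, and MKI67, a proliferation antigen, had 30.4, 31.0 and 48.3 FPKM in KO1EV, against 41.3, 49.6 and 41.1 FPKM in KO1. Neither was called with all 6 libraries, and without KO1EV library 3 MKI67 was called lower, at −0.50 against −0.29 with it (adjusted p = 0.00148 and 0.349, limma).

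KO1EV library 3 was set apart by genes of the integrated stress response. The transcription factors ATF4 and CHOP switch on amino acid synthesis, import and related genes when amino acids are short or unfolded protein accumulates. INHBE, an inhibin subunit driven by this response, had 60.2, 61.6 and 9.35 FPKM in KO1EV, against 29.7, 32.5 and 33.1 FPKM in KO1. KO1EV libraries 1 and 2 were above every KO1 library and library 3 was below every one. CHAC1, which breaks down glutathione, had 67.8, 64.1 and 13.2 FPKM in KO1EV, against 37.7, 46.9 and 48.5 FPKM in KO1. TRIB3, a pseudokinase, had 44.1, 42.9 and 9.50 FPKM in KO1EV, against 17.9, 22.4 and 22.3 FPKM in KO1. DDIT3, which encodes CHOP, had 39.3, 38.2 and 9.45 FPKM in KO1EV, against 17.4, 18.6 and 21.5 FPKM in KO1. IL21R, a cytokine receptor, showed the same order of libraries, with 28.2, 26.8 and 4.74 FPKM in KO1EV, against 9.71, 12.6 and 11.3 FPKM in KO1.

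Over the 28 tested genes of the ATF4 and CHOP list, the mean log2(FPKM + 1) was 6.47, 6.46 and 5.43 in the KO1EV libraries and 6.10, 6.24 and 6.26 in the KO1 libraries. None of the 28 was called by limma with all 6 libraries, 1 had an unadjusted p below 0.05, and the median log2 fold change was −0.12. Without KO1EV library 3, 16 rose and 1 fell, with a median of 0.18, where 11.6% of all genes rose and 19.1% fell. Leaving that library out turned the sign of the list's median. Library 3 had higher heat shock chaperones. HSPA8, the constitutive HSP70, had 767, 760 and 1416 FPKM in KO1EV, against 937, 811 and 841 FPKM in KO1, and HSPH1, an HSP70 partner, had 14.1, 14.5 and 31.1 FPKM in KO1EV, against 20.4, 16.3 and 16.1 FPKM in KO1. The highest members of library 3 by rank further included PRKDC, the catalytic subunit of DNA-dependent protein kinase, at 26.7, 27.2 and 55.8 FPKM in KO1EV, against 47.01, 63.7 and 51.8 FPKM in KO1, together with ID3, ATAD3B and LUC7L. KO2 library 3 departed from its own group in the same genes, with INHBE at 99.99 and 96.4 FPKM in KO2 libraries 1 and 2 and 6.62 FPKM in library 3. Why these libraries stood apart was not tested.

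**Figure D3:**
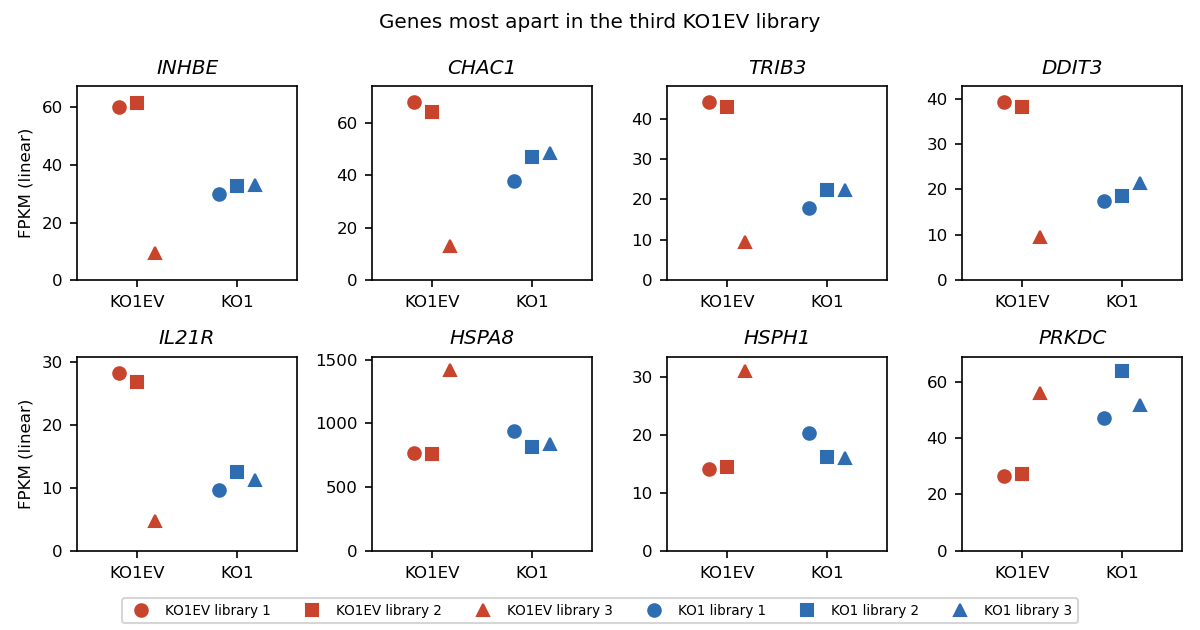
FPKM on a linear axis from 0 in the 3 KO1EV and 3 KO1 libraries for 5 genes with the lowest and 3 of the genes with the highest KO1EV library 3 relative to libraries 1 and 2. Triangles mark library 3. In INHBE, CHAC1, TRIB3, DDIT3 and IL21R the KO1EV triangle lies below every KO1 library, while KO1EV libraries 1 and 2 lie above them.

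Secretory pathway genes were higher in KO1EV libraries 1 and 2. Of 41 tested genes of the endoplasmic reticulum stress and XBP1 list, 3 rose with all 6 libraries, SDF2L1, DNAJB11 and FKBP2, and none fell, with a median log2 fold change of 0.10. DNAJB11 averaged 54.5 ± 1.32 FPKM in KO1EV and 40.6 ± 3.48 FPKM in KO1, and was lost without KO1EV library 1 or 2 or KO1 library 2 or 3. FKBP2 was lost without any 1 of the 5 libraries other than KO1EV library 3, with adjusted p up to 0.097 for DNAJB11 and 0.0952 for FKBP2. SDF2L1, a cofactor of the chaperone BiP, had 32.7, 29.9 and 32.1 FPKM in KO1EV, against 21.2, 21.1 and 21.8 FPKM in KO1 (log2 fold change 0.54 ± 0.06, adjusted p = 0.00252, limma), and its groups were well separated. PDIA2, a protein disulfide isomerase, averaged 57.6 ± 1.08 FPKM in KO1EV and 31.4 ± 2.32 FPKM in KO1. HSPA5, which encodes BiP, averaged 119.9 ± 2.05 FPKM in KO1EV and 108.8 ± 2.18 FPKM in KO1, with an adjusted p of 0.151 over all 6 libraries. Without KO1EV library 3 HSPA5 was called higher, at 0.12 with an adjusted p of 0.0499 in limma's test. The list's mean log2(FPKM + 1) was 6.25, 6.25 and 6.01 in the KO1EV libraries and 6.05, 6.06 and 6.07 in the KO1 libraries. When KO1EV library 3 was left out, 21 of the 41 rose and 1 fell. Over all genes 11.6% rose and 19.1% fell in that fit, and 2.33% and 3.86% with all 6 libraries.

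The plasma cell identity list had 4 rises and 1 fall among 27 tested genes with all 6 libraries, and 12 rises and 4 falls without KO1EV library 3. Over all genes, 2.33% rose and 3.86% fell with all 6 libraries, and 11.6% and 19.1% without KO1EV library 3. SDC1, the plasma cell surface proteoglycan CD138, had 265, 258 and 240.1 FPKM in KO1EV, against 171, 185 and 186 FPKM in KO1 (log2 fold change 0.49 ± 0.06, adjusted p = 0.00486, limma), and was called in each fit without 1 library. KO1R averaged 295.9 ± 9.37 FPKM. FGFR3, a receptor overexpressed through the translocation of this myeloma subtype, averaged 626.3 ± 33.6 FPKM in KO1EV and 493.0 ± 48.3 FPKM in KO1, with an adjusted p of 0.0494 that was lost without any 1 of the 5 libraries other than KO1EV library 3 (0.00351 to 0.155). The plasma cell transcription factors IRF4 and PRDM1 were not called with all 6 libraries, at 330.5 ± 16 and 104.0 ± 3.43 FPKM in KO1EV, against 341.1 ± 5.92 and 113.7 ± 3.89 FPKM in KO1. PRDM1 was called lower without KO1EV library 3, at −0.15 with an adjusted p of 0.0302 in limma's test, and IRF4 was not, at 0.915. NCAM1, the adhesion molecule CD56, was called lower, at −0.37, but not without KO1EV library 2 or any 1 KO1 library (up to 0.121). EEF1A2, a translation elongation factor, had 351, 338 and 312 FPKM in KO1EV, against 521, 565 and 573 FPKM in KO1 (log2 fold change −0.73 ± 0.07), and was far lower in WT at 49.9 ± 2.62 FPKM.

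Antigen presentation and interferon genes showed few changes with all 6 libraries, where 2.33% of all genes rose and 3.86% fell, and more without KO1EV library 3. HLA-DRA, the alpha chain of MHC class II, had 14.7, 16.03 and 15.2 FPKM in KO1EV, against 9.06, 8.07 and 8.61 FPKM in KO1 (log2 fold change 0.77 ± 0.07, adjusted p = 0.0011, limma). It was 1 of 2 rises, with HLA-DPA1, among 8 tested class II genes, and HLA-C was the sole rise among 16 class I presentation genes. HLA-DPA1 was lost without KO1EV library 1 or any 1 KO1 library, and HLA-C without any 1 of the 5 libraries other than KO1EV library 3, with adjusted p up to 0.093 and 0.186. Among 14 tested interferon-stimulated genes none rose and 2 fell. IFI16, a nuclear DNA sensor, averaged 1.18 ± 0.125 FPKM in KO1EV and 2.40 ± 0.112 FPKM in KO1, and MX2, a viral restriction factor, 0.92 ± 0.529 FPKM in KO1EV and 2.78 ± 0.702 FPKM in KO1. MX2 was lost without any 1 of the 5 libraries other than KO1EV library 3 (adjusted p up to 0.175, limma). The list of nucleic acid sensing and restriction genes did not hold IFI16 or MX2. Among its 23 tested genes, TMEM173, which encodes STING, was the sole call. It averaged 24.4 ± 2.43 FPKM in KO1EV and 34.8 ± 1.63 FPKM in KO1, and its call was lost without any 1 KO1 library (adjusted p up to 0.0892, limma). None of 17 tested NF-kB target genes was called by limma, and 3 had an unadjusted p below 0.05. Class I presentation genes without KO1EV library 3 had 7 rises and no fall of 16, and class II genes 3 rises and 2 falls of 8, where 11.6% of all genes rose and 19.1% fell. Nucleic acid sensing and restriction genes then had 1 rise and 8 falls of 23, interferon-stimulated genes 2 rises and 5 falls of 14, and NF-kB target genes 2 rises and 3 falls of 17.

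Ribosomal protein genes showed the widest gap between the fits. With all 6 libraries 3 of 75 rose, RPS13, RPLP2 and RPL27A, and none fell, with a median log2 fold change of 0.17, while 27 of the 75 had an unadjusted p below 0.05. RPS13 was lost without KO1 library 2 or 3, and RPLP2 and RPL27A without any 1 of the 5 libraries other than KO1EV library 3. Without KO1EV library 3, 63 of 75 rose. The list's mean log2(FPKM + 1) was 10.83, 10.84 and 10.61 in the KO1EV libraries and 10.64, 10.53 and 10.60 in the KO1 libraries, so library 3 lay within the range of KO1 and the other KO1EV libraries above it. Of 46 tested oxidative phosphorylation genes, 6 rose with all 6 libraries and 23 rose and 1 fell without KO1EV library 3. COX8A, a cytochrome oxidase subunit, had 741, 726 and 715 FPKM in KO1EV, against 514, 555 and 601 FPKM in KO1, and was lost without KO1EV library 1 or 2 or KO1 library 1 or 2 (adjusted p up to 0.111, limma). Cholesterol synthesis genes had 2 rises and 1 fall of 29 with all 6 libraries, and 14 rises and 2 falls without KO1EV library 3. MYC and ribosome biogenesis genes had no call of 42 with all 6, where 3 had an unadjusted p below 0.05, and 2 rises and 12 falls without KO1EV library 3. MYC itself averaged 180.4 ± 26 FPKM in KO1EV and 231.1 ± 21.2 FPKM in KO1, with an adjusted p of 0.106 over all 6 libraries. Without KO1EV library 3 MYC was called lower, at −0.24 with an adjusted p of 0.0259 in limma's test. With all 6 libraries 2.33% of all genes rose and 3.86% fell. Without KO1EV library 3 these shares were 11.6% and 19.1%, and the lists stand against them.

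**Figure D4:**
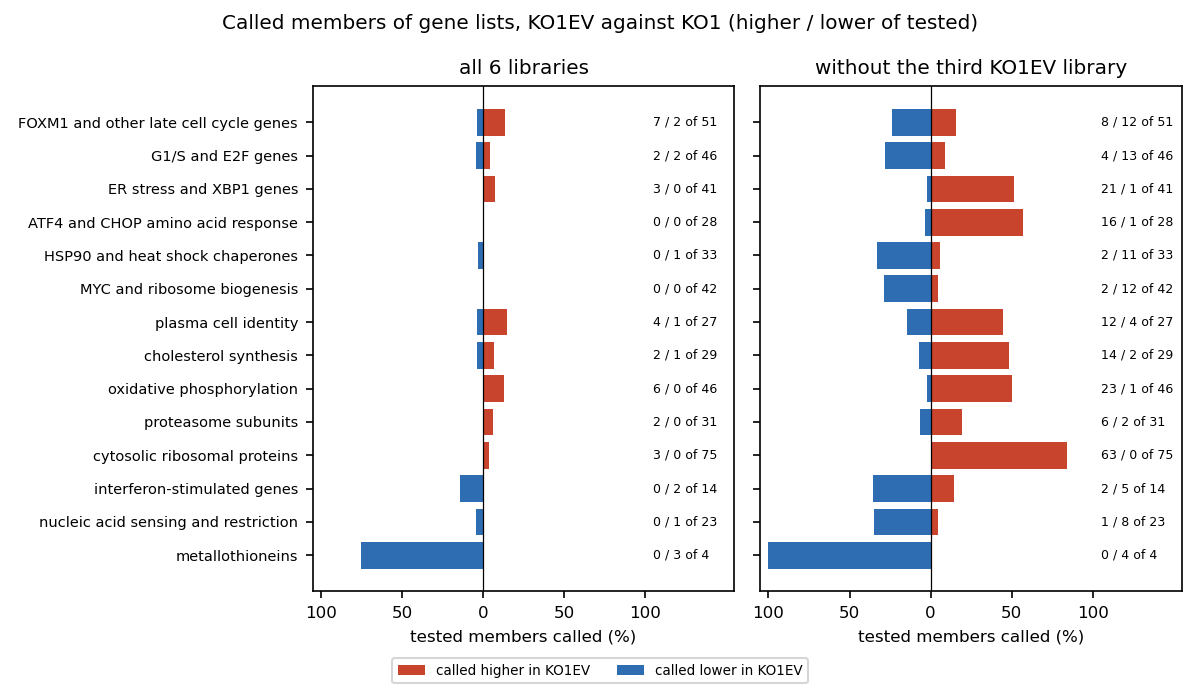
Share of the tested members of 14 gene lists called higher in KO1EV (to the right) or lower in KO1EV (to the left), in percent, with all 6 libraries (left panel) and without KO1EV library 3 (right panel). Numbers at the right of each bar are genes called higher and lower of those tested. Ribosomal protein genes have 3 rises of 75 in the left panel and 63 of 75 in the right.

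The remaining lists had 0 to 5 calls each with all 6 libraries, beside 2.33% rises and 3.86% falls over all genes. G1/S and E2F genes had 2 rises and 2 falls of 46, replication fork and DNA repair genes 1 rise, which was HLTF, and 2 falls of 34, and DNA methylation and Polycomb genes 1 rise, again HLTF, and 2 falls of 30. Adhesion and matrix genes had 2 rises and 3 falls of 21, fatty acid oxidation and electron transfer genes 3 rises of 30, and proteasome subunits 2 rises of 31. Heat shock chaperones had 1 fall of 33 and hypoxia genes 1 fall of 15, while p53 targets had 1 rise of 26 and BCL2 family genes 1 rise of 15. Replication-dependent histones had no call of 15 and glycolysis genes none of 21, with 4 and 2 genes at an unadjusted p below 0.05 in limma's test. The counts were larger in each of these lists without KO1EV library 3, beside 11.6% rises and 19.1% falls over all genes. G1/S and E2F genes then had 4 rises and 13 falls, replication fork and DNA repair genes 2 and 9, DNA methylation and Polycomb genes 2 and 6, and heat shock chaperones 2 and 11. Fatty acid oxidation and electron transfer genes had 10 rises and no fall, proteasome subunits 6 and 2, p53 targets 6 and 2, and adhesion and matrix genes 4 and 6. Hypoxia genes had 3 rises and 2 falls, BCL2 family genes 2 and 2, glycolysis genes 2 and 4, and histones 2 and 0.

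Calls were unevenly spread along chromosomes, a pattern chosen after the values were seen. Genes were put in RefSeq order, and only their order was used. A run was at least 4 successive stretches of about 20 expressed genes whose medians all lay at least 0.08 (log2) to the same side of 0. This rule used the fold changes described here. A run's median, its shares and its contrast with the rest of the chromosome follow in part from the rule and were not tested. On chromosome 11, 63 of 585 expressed genes rose (10.8%, against 2.33% of all genes), and 61 of these rises fell among the first 300 genes in order, BET1L to SLC25A45. In that run 257 of the 300 genes, or 85.7%, had a log2 fold change above 0, the median was 0.20, 20.3% rose and 4 genes fell. The remaining 285 genes of the chromosome had a median of −0.03, with 2 rises and 13 falls. Without KO1EV library 3 the run's median was 0.19. Relative to the mean of all 15 OPM2 libraries, the run's median was 0.06, 0.06 and 0.08 in the KO1EV libraries, 0.03 to 0.04 in KO1R and −0.03 to 0.03 in WT, and −0.14, −0.13 and −0.11 in the KO1 libraries. KO2 lay between −0.04 and 0.08, so the KO1 libraries were the lowest of the 15 on this run. Chromosome 18 had a share of rises close to that of chromosome 11, with 14 of 140 expressed genes (10.0%) and a median of 0.07, but held no run, and 17 of 243 rose on chromosome 22 (7.0%).

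Chromosome 8 showed a run in the other direction. The 80 expressed genes from NSD3 to TPD52 had a median log2 fold change of −0.21, with 22 falls (27.5%, against 3.86% of all genes) and no rise. The other 267 genes of the chromosome had a median of −0.03 and 11 falls. Relative to the 15-library mean, the median of the 80 genes of the run was −0.06, −0.04 and −0.03 in the KO1EV libraries. It was 0.22, 0.16 and 0.17 in the KO1 libraries, with WT between −0.04 and 0.03. Weaker shifts ran from DNAJC13 to RPL35A on chromosome 3, with 159 genes, a median of 0.14 and 18 rises, from LOC391322 to EWSR1 on chromosome 22, with 80 genes, a median of 0.13 and 6 rises, and from TRMT10A to CLCN3 on chromosome 4, with 120 genes, a median of 0.09 and 5 rises. The other 380 genes of chromosome 3 had 5 rises and the other 233 of chromosome 4 had 6. The other 163 genes of chromosome 22 had 11 rises and a median of 0.07, so its run differed little from the rest of that chromosome. All 3 ribosomal proteins that rose with all 6 libraries, both proteasome subunits, PSMA1 and PSMC3, and COX8A, FKBP2, CD81, TM7SF2, KIF18A and POLA2 among the list members called higher are encoded on chromosome 11. CD81, TM7SF2, POLA2, PSMA1 and PSMC3 were each lost without any 1 of the 5 libraries other than KO1EV library 3, with adjusted p up to 0.208 in limma's test. List members called lower are encoded there too, which are NCAM1, the checkpoint kinase CHEK1 at −0.34 and the repressor E2F8 at −0.34. NCAM1 and CHEK1 lie after the chromosome 11 run in gene order, outside it. CHEK1 was lost without KO1EV library 1 or 2 or KO1 library 2 or 3, and E2F8 without KO1EV library 2 or any 1 KO1 library, with adjusted p up to 0.086 and 0.17. Both were chosen for naming after their values were seen. With the genes of chromosome 11 set aside, none of 70 ribosomal protein genes was called by limma with all 6 libraries, 23 had an unadjusted p below 0.05, and 58 were called without KO1EV library 3. DNA copy number was not measured in these libraries.

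**Figure D5:**
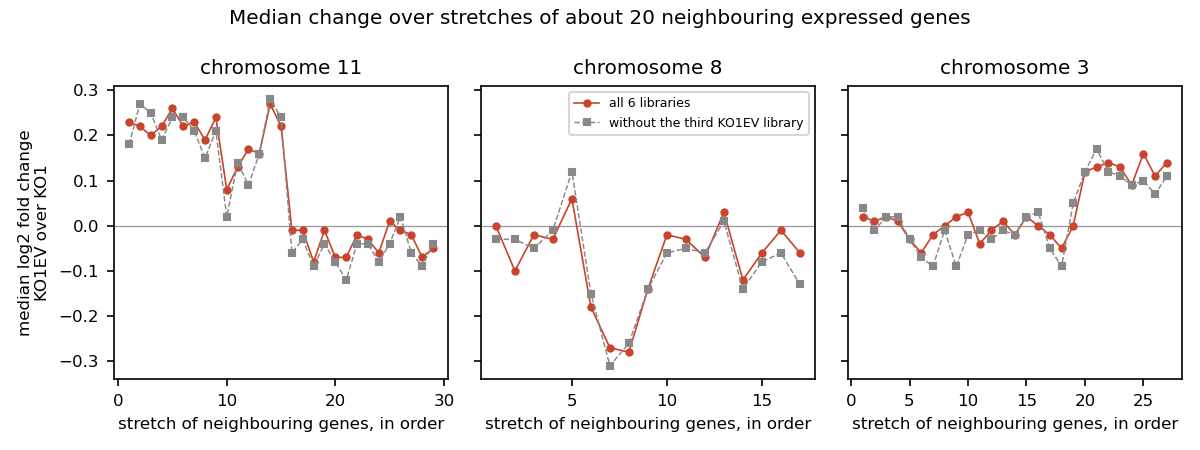
Median log2 fold change of KO1EV over KO1 on the vertical axis for successive stretches of about 20 neighbouring expressed genes on chromosomes 11, 8 and 3, in gene order. Red points are all 6 libraries and grey squares leave out KO1EV library 3. Chromosome 11 lies at 0.08 to 0.27 over its first 15 stretches and near 0 afterwards, and chromosome 8 dips to −0.28.

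Fold changes also followed transcript length. Over 9995 genes matched by symbol to a median transcript length, the Spearman correlation between length and log2 fold change was −0.21, and −0.24 without KO1EV library 3, across genes, which are not independent replicates. Single libraries also differed from the rest of their own group with length. Their correlations ranged over −0.12 to 0.13 in KO1EV, −0.23 to 0.15 in KO1 and −0.24 to 0.29 in KO1R. A length trend of this size therefore also occurred between replicates. The quintile of genes with the longest transcripts, 4652 bases at the median, had 16 rises and 94 falls and a median log2 fold change of −0.08, whereas the quintile with the shortest, 705 bases at the median, had 74 rises and 71 falls and a median of 0.01. With the length trend removed from each library, a setting added after the data were seen, 608 genes were called, 268 higher (2.68%) and 340 lower (3.4%), with 11 rises and 20 falls of at least 2-fold. The share of rises among all calls was 37.6% as tested, 44.1% with the length trend removed and 46.0% with quantile scaling of the libraries. Without KO1EV library 3 it was 37.8%, and 51.0% with the length trend removed as well.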

How the data were processed

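Poly-A RNA was read as paired ends of 100 bases on a DNBSEQ instrument, per the labels' protocols, and the submitters' processing notes name hg19 as the genome. Which aligner and which counter were used is not given in the sources used here. The authors deposited FPKM per gene, per the file headers, so read depth and counting error are unknown. Of 16407 genes, 23 with symbols turned into dates were renamed.

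Values were taken as log2(FPKM + 1), so changes of low genes are understated. The 10099 genes at 1 FPKM or more in at least 3 of the 6 libraries were tested with limma-trend (limma 3.58.1, R 4.3.3), KO1EV minus KO1, two-sided, with Benjamini-Hochberg adjustment over all genes tested and calls at an adjusted p below 0.05. Errors are the SE of the fit or the SD of 3 libraries. Other group pairs were fitted in the same way, each on its own 6 libraries. In a test on simulated data, each gene was drawn on its own with its mean and pooled within-group SD. Of genes changed 1.5-, 2- and 4-fold on the log2(FPKM + 1) scale, 77.6%, 97.0% and 100% were recovered, and 7 unchanged genes were called. No simulated library departed in many genes at once, as KO1EV library 3 did, so these rates may not hold for the real libraries.

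Named genes were FOXM1, the 12 largest rises and the 12 largest falls called with and without KO1EV library 3 with a group mean of at least 5 FPKM, up to 4 members of each list by smallest adjusted p, the 5 genes in which KO1EV library 3 was highest and the 5 in which it was lowest relative to its group, and a fixed set. Lists are described by counts and medians, with no set test. The members, lists and rules were chosen with earlier results of these data known. Replicate numbers are not stated to mark shared batches, and the deviations of KO1EV and KO1 libraries with the same number correlated at −0.14, −0.07 and −0.13, so the samples were not paired. Gene order and promoter windows are from RefSeq (GRCh38.p14), which differs from the authors' build and was used for order and sequence only. Transcript lengths were matched by symbol for 9995 genes. Other settings tried were other libraries in the fit, pseudocount, filter, scaling, library weights, replicate block, single libraries left out and the length trend.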

Additional observations from a re-analysis of the deposited data

How the results depend on the processing

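The count of calls, 625 genes with 235 higher and 390 lower, depended on which libraries were used and how they were weighted. Leaving out 1 library gave 113 (without KO1 library 2) to 3106 calls (without KO1EV library 3), 38 to 1174 of them higher and 75 to 1932 lower, and the 2-fold counts stayed at 11 to 14 rises and 18 to 26 falls. With all OPM2 libraries in the fit except library 3 of KO1EV and of KO2, 3276 genes were called, 1282 higher and 1994 lower. Library weights, which gave KO1EV library 3 a weight of 0.129, gave 4218 calls, 1606 higher and 2612 lower. With the length trend removed and KO1EV library 3 left out, 2868 were called, 1463 higher and 1405 lower. A mean of at least 5 FPKM left fewer genes to test and gave 353 calls, 191 of them lower, with 4 rises and 7 falls of at least 2-fold. A pseudocount of 0.1 gave 21 rises and 53 falls of at least 2-fold. The fit with the replicate number as a block had fewer residual degrees of freedom and gave 256 calls, 81 higher and 175 lower. The pairs with the same number did not deviate together. Of the genes named, 4 turned sign with a call under a setting that left out or weighted down KO1EV library 3. HSPH1 was at −0.27 both without it and in the fit that also left out KO2 library 3, and single libraries left out gave −0.27 to 0.27. LUC7L was at −0.33 in both of these fits, at −0.28 with library weights and at −0.35 with the length trend removed as well, and ranged over −0.33 to 0.20. CHAC1 was at 0.57 in these fits and with the length trend removed as well, at 0.45 with weights, and ranged over −0.57 to 0.57. HSPA8 was at −0.17, at −0.19 with the length trend removed as well, and ranged over −0.17 to 0.27. Over 1737 fold changes of 104 genes under these settings, 1412 kept their direction and their side of the threshold, 218 kept the direction but lost the call, 61 gained one, and 33 changed sign with no call. Of 30 list medians, 6 had the other sign without KO1EV library 3, 2 under quantile scaling and 0 with all 15 OPM2 libraries in the fit. The cause of these shifts was not tested. With no read counts, precision at low FPKM is unknown.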
